A study of Mus musculus with 2 samples.

Results

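A splice junction list pooled over 2 thymus RNA-seq libraries was searched for rows on autosomes that span at least 100000 bases and hold at least 10 reads. This rule kept 1552 of the 532115 listed junctions. Both span and reads therefore chose the members and are given below as a description only. The samples were thymus of C57BL/6J mice aged 8 weeks, littermates of both sexes, and the labels name the libraries replicates 1 and 2 of 1 group. No treatment, genotype or second tissue was compared. The libraries were stranded, from polyadenylated RNA over 200 nucleotides depleted of ribosomal RNA, read in pairs of 76 bases, and gave 48.6 M and 62.1 M fragments over genes. The labels list 1 donor entry for both libraries, so their spread may be technical in part. The thymus label was checked on its markers: Lck averaged 1391 TPM (a transcript level corrected for length and library size), Cd8a 503, Rag1 276 and the epithelial gene Psmb11 64.7, against 0.065 for the neuronal gene Snap25.

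The members had been proposed as very long introns, and most of them fitted no annotated intron. Of the 1552 members, 270 (17.4%) had exactly the length of an intron that GENCODE M21 annotates on the same chromosome and strand. The other 1282 fitted none, so the whole set is called long junctions here and only the 270 are called long introns. A member without a fit may still be an intron that is not annotated or whose length differs between genome builds. Of the 532115 rows, 80316 were autosomal and of at least 100000 bases, and 133821 were autosomal with at least 10 reads. Reads on all members made up 0.345% of the reads on autosomal junctions.

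An intron is the stretch of a gene that is copied into RNA and then removed by splicing, from a donor site at the end of one exon to an acceptor site at the start of the next. In mammals the longest introns often follow the first exons of genes for adhesion molecules, ion channels, kinases and transcription regulators, and polymerase needs a long time to cross them. Read alignment over such a distance is also prone to join copies of the same sequence, so a long gap in a read is not by itself an intron.

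The names rest on length alone because the junctions are on mm9 and the annotation is on GRCm38, and no position was converted between builds. Each of the 270 lengths fitted exactly 1 annotated intron. When every member's length was changed by 1 base, only 1 fitted in either direction. The order of the 270 along the chromosomes was the same in both builds, with 0 breaks. The list's own names carry an entry A, whose meaning is not given in the sources used here, and 259 of the 261 members with A equal to 1 fitted an annotated length, against 11 of 1291 with A equal to 0. In 3 cases the intron belonged to 2 annotated genes (Cox16 and Gm20498, Umad1 and Gm45062, Foxp1 and Gm20696), and reads of such genes cannot be assigned to one of them.

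The exon letters on both sides of the long introns were read from GENCODE M21 transcripts, 15 bases before and 15 after the join, and all 36277 pairs of joins from different hosts were compared. Most pairs shared 5 to 11 of 30 bases. In 8 pairs at least 20 of 30 bases were identical, and in 7 of these the hosts were members of 1 gene family that carried the long intron at the same rank from the start of the leading transcript. The sequences of 5 such pairs are shown because they give the exon letters on which related genes match around their longest introns. Each run is the spliced RNA strand, 5′ to 3′, 30 bases with the join in the middle, lower case where the partners share the base and capitals where they differ.
Prkcb: gAttccagtgTcaagtCtgctgCtttgtTg
Prkca: gCttccagtgCcaagtTtgctgTtttgtGg
Abtb2: gCaagaacgccaAtggtgtCctCTCTctCc
Btbd11: gGaagaacgccaGtggtgtGctGAGCctGc
Kcnq3: ctaccacgcgCtTgtGttCctGAttgtCCt
Kcnq5: ctaccacgcgTtCgtTttTctCCttgtGTt
Opcml: GaGCgccaCcctcaggtgtACCAtagaTga
Lsamp: CaCGgccaTcctcaggtgtGTGGtagaAga
Rbms3: taCctCcaaAccaagcagtcCTATgCAcca
Rbms1: taTctGcaaGccaagcagtcTCTGgTCcca
All 10 joins lie in coding sequence.

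Prkcb and Prkca, which encode the beta and alpha forms of protein kinase C, shared 25 of 30 bases around intron 2 of 16 in both genes. The intron was 134414 bases long in Prkcb (GRCm38 chr7:122290545-122424958, plus strand) and 148433 bases in Prkca (GRCm38 chr11:108192213-108340645, minus strand). Abtb2 and Btbd11, related genes for ankyrin repeat proteins with a BTB domain, shared 22 bases around intron 1, of 111135 bases in Abtb2 (GRCm38 chr2:103567610-103678744, plus strand) and 157963 bases in Btbd11 (GRCm38 chr10:85388479-85546441, plus strand). The potassium channel genes Kcnq3 and Kcnq5 shared 22 bases around intron 1 of 254365 bases (GRCm38 chr15:66031471-66285835, minus strand) and 367566 bases (GRCm38 chr1:21593615-21961180, minus strand). The cell adhesion genes Opcml and Lsamp shared 21 bases around intron 1 of 270721 bases (GRCm38 chr9:28404413-28675133, plus strand) and 355383 bases (GRCm38 chr16:41533532-41888914, plus strand). Rbms3 and Rbms1, which encode RNA-binding proteins, shared 21 bases around intron 1 of 141608 bases (GRCm38 chr9:117110119-117251726, minus strand) and 120218 bases (GRCm38 chr2:60842473-60962690, minus strand). The cadherins Cdh4 and Cdh2 (intron 2 of 15 in both) and the splicing regulators Rbfox1 and Rbfox2 (intron 1) also shared 21 bases. The eighth pair, Fbxl7 and Agap1, shared 20 bases, and its members are not of 1 family. Joins of related genes are not independent of each other.

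The last 2 exon bases before the intron, which in the common splice site pattern are AG, were AG in 151 of the 270 long introns (55.9%). The share was 56.0% in 8713 well-read annotated introns of 10 to 100 kb (from 10000 to under 100000 bases) and 56.2% in 52928 of 1 to 10 kb (from 1000 to under 10000 bases). AG followed by G stood at 26.3%, 27.0% and 27.8% of the joins. In these exon letters the long introns thus stood close to the shorter ones, and no intron letters were read.

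The list gives each row a second entry, C, whose meaning is not given in the sources used here, and it divides the 1282 members without an annotated intron into 601 with C equal to 1 and 681 with C equal to 0. Rows with C equal to 0 made up 44.4% of the whole list, 43.9% of the members and 2.79% of the 132269 shorter autosomal junctions with at least 10 reads. Members with A equal to 1 made up 16.8% of the long junctions, against 87.4% of the shorter ones. The long introns held a median of 28 reads (10 to 2205), the others with C equal to 1 a median of 25 (10 to 2589) and those with C equal to 0 a median of 16 (10 to 19775). Median spans were 129876, 193970 and 196862 bases, and the longest of each set were 415062, 1223208 and 973703 bases.

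**Figure D1:**
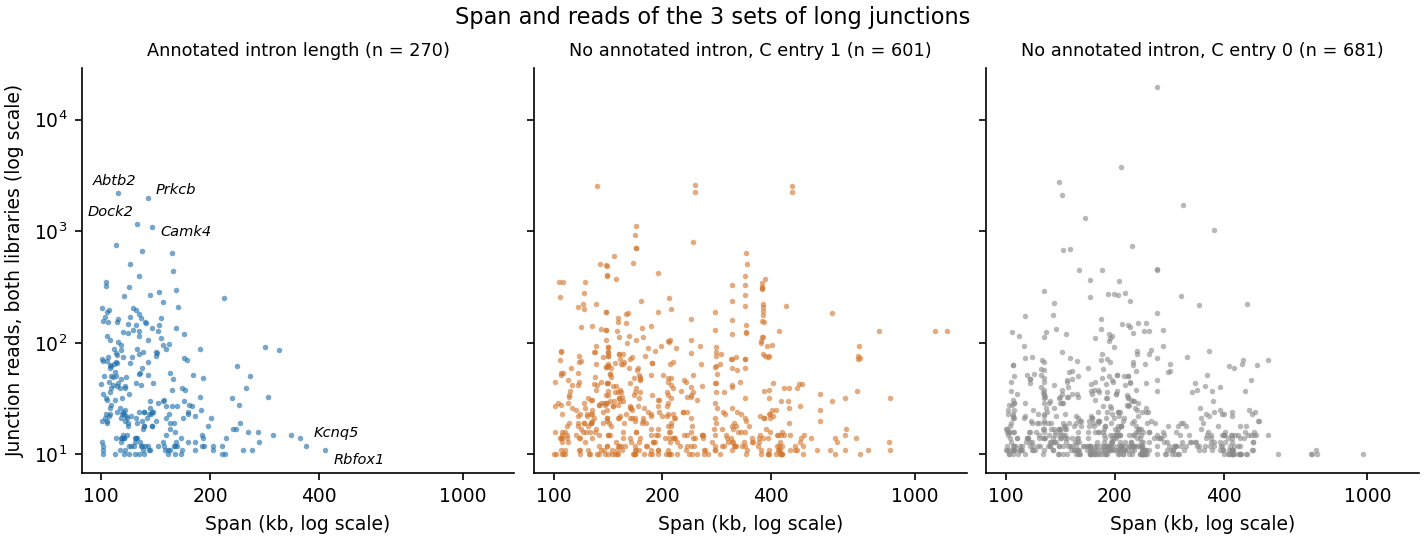
Span of each long junction in kilobases (horizontal, log scale) against its reads pooled over both libraries (vertical, log scale), in 1 panel for each of the 3 sets. The long introns crowd below 200 kb and end at 415062 bases, while the other sets spread to about 1 Mb and hold columns of parallel junctions of like span.

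The 3 sets also differed in further measures, of which the equal read counts rest on the reads that the rule used. Both ends were used by shorter well-read junctions in 18 long introns (6.67%), in 354 of the others with C equal to 1 (58.9%) and in 7 with C equal to 0 (1.03%). Neither end was used by a shorter junction in 220 (81.5%), 64 (10.6%) and 617 (90.6%). The deposited reproducibility value, whose making and meaning are not stated, was above 0.1 in 1 long intron (0.370%), 28 (4.66%) and 144 (21.1%). A read count exactly equal to that of another listed junction on the same donor or acceptor was found for 3 long introns (1.11%), for 302 of the others with C equal to 1 (50.2%) and for 65 with C equal to 0 (9.54%). Among members with at least 30 reads, equal counts stood at 0 of 133, 135 of 270 (50%) and 7 of 177 (3.95%). Equal counts need a second junction on the same end, and their rate by chance was not estimated. The median share of donor reads was 98.3% in the long introns, 33.6% with C equal to 1 and 100% with C equal to 0.

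**Figure D2:**
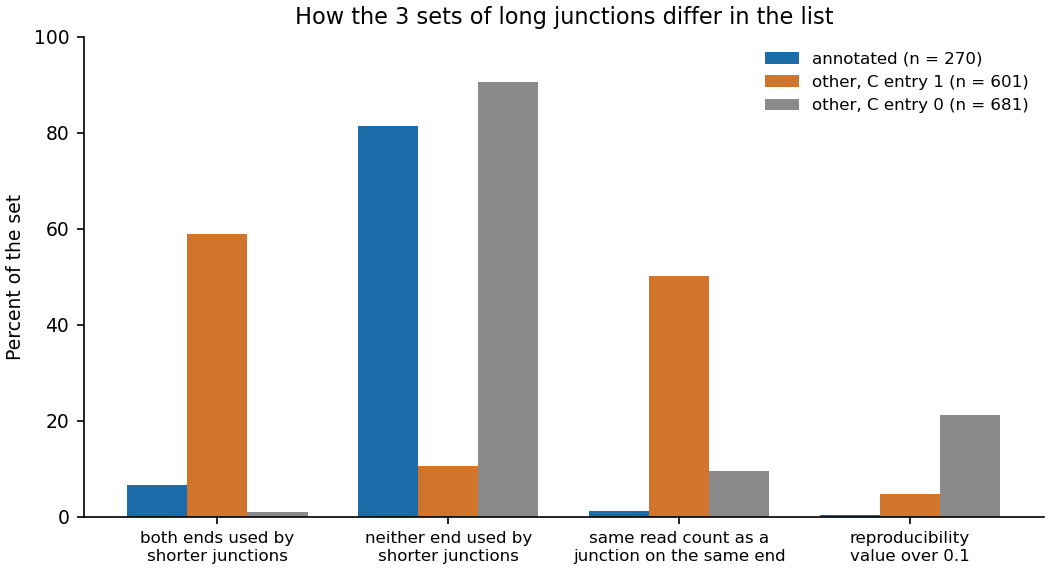
Bars give the percent of each set (270 long introns, 601 others with C entry 1, 681 others with C entry 0) with 4 properties named under the axis. Of the others with C entry 1, 58.9% had both ends in use by shorter junctions and 50.2% had the exact read count of a junction on the same end, against 6.67% and 1.11% of the long introns.

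Long junctions lay on all 19 autosomes in each set. The share that fitted an annotated intron was lowest on chromosome 12 (7.03%), chromosome 17 (7.45%) and chromosome 4 (7.96%) and highest on chromosome 18 (48.5%) and chromosome 16 (41.4%). At the span limit, the nearest members were introns of Chchd6 (100113 bases, 43 reads) and Bach2 (100130 bases, 71 reads), an unnamed junction of 100167 bases, and introns of Babam2 (100196 bases, 204 reads) and Tbc1d4 (100272 bases, 20 reads). The nearest junctions outside it had 99951, 99890, 99861, 99819 and 99490 bases, and only the last, in Zfp521, fitted an annotated intron. At the read limit, 131 members had 10 reads, 12 of them long introns, among them Dnajc6, Rad51b, Cox16, Pdgfd and Ghr. A further 174 junctions had 9 reads, and 11 fitted annotated introns, among them Atxn1, Arhgap26, Vti1a, Synpo2 and Etl4.

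Intron 1 of Abtb2 (mm9 chr2:103407767-103518901, plus strand) held 2205 reads, which were 99.4% of the reads at its donor (95% exact binomial interval 99.0 to 99.7%; such intervals cover counting error only). Intron 2 of Prkcb, whose kinase acts downstream of lymphocyte antigen receptors, held 1993 reads (mm9 chr7:129434059-129568472, plus strand), 95.5% of those at its donor (94.5 to 96.3%). Intron 27 of 51 of Dock2, an activator of the GTPase Rac in lymphocytes, held 1150 reads (mm9 chr11:34212558-34338274, minus strand). Intron 1 of Camk4, a calcium-dependent kinase of thymocytes, held 1086 reads (mm9 chr18:33099199-33237646, plus strand). Both ends of each of these 4 introns were given mainly to that intron, with donor and acceptor shares of at least 95.1%.

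Intron 1 of Dock10, also an exchange factor, held 751 reads (mm9 chr1:80644908-80754900, minus strand). Intron 2 of the leading Runx1 transcript held 662 (mm9 chr16:92695983-92825833, minus strand). Runx1 is a transcription factor of blood cell and thymocyte development, and this intron is the first of other Runx1 transcripts. The last intron of Fam172a held 634 reads, intron 1 of Cmip 506, intron 1 of Btbd11 437 and intron 6 of the leading Msra transcript 399. Msra encodes an enzyme that repairs oxidised methionine. Of the 270 long introns, 53 held at least 100 reads.

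The 10 longest introns included several in genes best known from neurons and cell contacts, and each held at most 91 reads. Intron 1 of Rbfox1, a splicing regulator of brain and muscle, spanned 415062 bases (mm9 chr16:6809342-7224403, plus strand) with 11 reads. It shared its acceptor with a second Rbfox1 intron of 154225 bases and took 23.9% of the reads there. Intron 1 of Kcnq5 held 12 reads, intron 1 of Lsamp 14, intron 2 of Cdh4 15 and intron 3 of the histone deacetylase gene Hdac9 15. Slit3, a guidance ligand, held 13 reads on intron 4 of 273314 bases, and Opcml held 16 on intron 1. The longest introns with more reads were intron 5 of Smyd3 (310880 bases, 86 reads), intron 1 of Plcl1 (289114 bases, 33 reads) and intron 1 of Cmss1 (283122 bases, 91 reads). Of the 270, 29 spanned at least 200000 bases.

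The long introns came from 240 genes, 237 of them protein coding. In 160 of 270 (59.3%) the intron was the first of at least 1 transcript, against 44.8% of well-read introns of 10 to 100 kb and 21.3% of those of 1 to 10 kb. Basic transcripts are the annotation's set of representative models. The shares that were first in a basic transcript were 48.1%, 36.3% and 10.5% of the same introns. Introns in no basic transcript stayed in these totals, and 249 of the 270 long introns lay in basic transcripts. All 2068 annotated autosomal introns of at least 100000 bases, read or not, included 1053 first introns (50.9%). On the leading transcript, 220 long introns lay within the coding part, 30 before it, 2 after it and 18 in transcripts with no coding sequence.

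Of those 2068 annotated introns, 667 were listed and 270 were well read. Where the host was under 1 TPM, 2.06% were well read. The share was 26.3% for hosts of 1 to 10 TPM, 36.7% for 10 to 100 TPM and 44.1% for 100 TPM or more. Among introns of basic transcripts in hosts of at least 10 TPM, 84 of 150 (56.0%) were well read. Even at these host levels a share of the annotated long introns stayed below 10 reads. The median share of the host's TPM carried by transcripts with the intron was 85.7% over both libraries, with 127 introns at 90% or more and 35 below 10%. These transcripts were taken from GENCODE M21 and looked up in transcript levels that rest on GENCODE M4. A transcript absent from the older set adds nothing to its share, so low shares may be too low. The part of this in the low shares was not tested.

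Host genes had a median level of 6.36 TPM (6.37 in replicate 1 and 6.13 in replicate 2), with quartiles at 2.57 and 16.7. The median was 13.6 TPM over the 14360 genes that averaged 1 TPM or above, and 7.36 TPM over the hosts at that level. Among hosts, 11 reached 100 TPM, 86 reached 10 and 23 stayed below 1. The highest were the splicing regulators Mbnl1 (279 and 229 TPM in replicates 1 and 2) and Celf2 (218 and 169), the actin-binding Ablim1 (193 and 170), Gse1 (188 and 158) and the adaptor of T cell receptor signalling Skap1 (154 and 162). Mbnl1 stood above Celf2 and Ablim1 above Gse1 in each library, while the order of Celf2 and Ablim1, and of Gse1 and Skap1, differed between the libraries. The lowest were Lsamp (0.12 and 0.3 TPM), Pde3a (0.2 and 0.39), Itgbl1 (0.44 and 0.46), Pex5l (0.5 and 0.42) and Gulp1 (0.28 and 0.76). Lsamp stood below Pde3a and Pde3a below Itgbl1 in each library, although the ranges of Lsamp and Pde3a overlapped. The other neighbours changed order between the libraries. Reads on the intron and the host's TPM had a Spearman correlation of 0.53 over 270 introns, which share their libraries, and of 0.55 over 8668 introns of 10 to 100 kb.

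**Figure D3:**
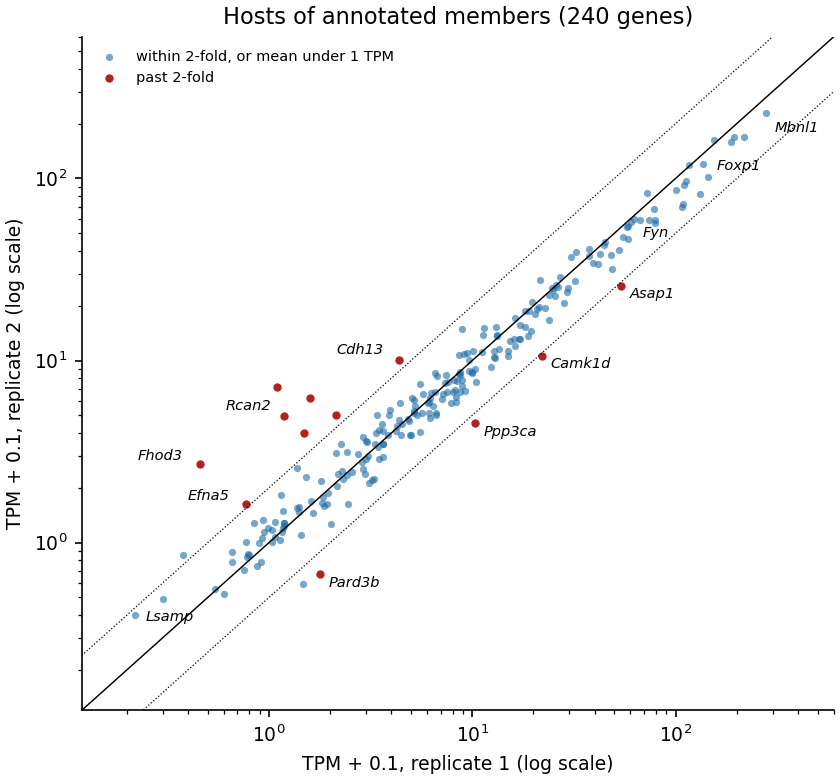
Level of each of the 240 host genes in replicate 1 (horizontal) and replicate 2 (vertical) as TPM + 0.1 on log scales. The solid line marks equal levels and the dotted lines a 2-fold difference, and 12 red points lie past it. The hosts follow the diagonal from Lsamp (0.12 and 0.3 TPM) to Mbnl1 (279 and 229 TPM).

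The hosts were read against gene lists chosen from general knowledge with earlier results of these data known. Of all 1078 genes with an annotated autosomal intron of at least 100000 bases, 240 (22.3%) were hosts. The share was 4.08% of such genes under 1 TPM, 45.2% from 1 to 10 TPM, 66.4% from 10 to 100 TPM and 73.3% at 100 TPM or more. The counts by list stand beside these shares, and no list was tested against them. Of 48 T lineage transcription regulators, 16 have such an intron and 10 were hosts, with a median of 30.6 TPM. Foxp1, which keeps naive T cells quiescent, had 144 and 102.3 TPM and 183 reads on its intron, which Gm20696 shares. Tox, needed for the CD4 lineage in the thymus, had 73.9 and 58.9 TPM and 233 reads. Bach2, a repressor of effector genes in lymphocytes, had 8.76 and 7.76 TPM and 71 reads. The others were Runx1, Tcf4, Etv6, Nfia, Zeb1, Ikzf2 and Nfib, with mean levels from 2.69 TPM (Nfib) to 88.8 (Runx1).

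Of 46 genes of antigen receptor and costimulation signalling, 9 have such an intron and 6 were hosts (Skap1, Prkcb, Fyn, Camk4, Prkca and Ptprj), with a median of 38.9 TPM. Of 42 actin, adhesion and GTPase regulators, 21 have such an intron and 14 were hosts, with a median of 6.61 TPM. Elmo1, the partner of Dock proteins, had the highest level there, 59.98 and 57.8 TPM, with 74 reads on its intron. A list drawn up for RNA binding and decay gave 10 hosts of 11 genes with such an intron, at a median of 9.17 TPM. It also held genes of other roles, and of its hosts Exoc4 and Exoc6b encode subunits of the exocyst, which tethers vesicles, and Immp2l a peptidase of the inner mitochondrial membrane. A list drawn up for chromatin and transcription cofactors gave 6 hosts of 12 genes, at a median of 20.2 TPM, among them Fbxl17, which encodes a subunit of a ubiquitin ligase. Of 44 neuronal and fragile-site genes, 43 have such an intron and 15 were hosts, at a median of 2.18 TPM. The remaining 179 hosts, on no list, had a median of 5.73 TPM.

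Between the libraries, 12 of 217 hosts at 1 TPM or more (5.53%) lay past 2-fold on the log2(TPM + 0.1) scale, which understates changes of low genes. Over all 14360 genes at that level the share was 4.23%, so the hosts' count lies near the background. With 1 library a side, no test was made. Higher in replicate 2 were 8 hosts (3.69%, against 2.74% of all genes) and lower were 4 (1.84%, against 1.49%). The median log2 ratio of replicate 2 over replicate 1 was -0.06 over hosts and -0.04 over all genes. Rbm20, a splicing factor of heart muscle, had 1 and 7.08 TPM (log2 ratio 2.71). The formin Fhod3 had 0.36 and 2.59 TPM (2.55), Rcan2, an inhibitor of calcineurin, 1.09 and 4.86 (2.06), and Me3, a mitochondrial malic enzyme, 1.49 and 6.11 (1.97). Cdh2 (1.43), Immp2l (1.24), the cadherin Cdh13 (1.2) and Efna5 (1.07) were the other hosts higher in replicate 2. Pard3b had 1.69 and 0.57 TPM (-1.42), Ppp3ca, the catalytic subunit of calcineurin, 10.3 and 4.43 (-1.19), Asap1 53.8 and 25.7 (-1.06) and Camk1d 21.99 and 10.5 (-1.05). Markers of other cell types also differed between the libraries. Of the 2 fat markers, Ucp1 of brown fat had 346 and 124 TPM and Adipoq 43.9 and 48.4. Of the 3 fibroblast markers, Dcn had 38.7 and 71.2 TPM, Col1a2 18.2 and 16.5 and Pdgfra 1.24 and 1.8. The neuronal marker Tubb3 had 26.4 and 15.3 TPM, and Snap25 was near 0 in both. The part of such cells in the differences was not tested.

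In most long introns, as in most shorter ones, the ends served that intron nearly alone. The median share of donor reads was 98.3% and of acceptor reads 98.0%, and 212 of 270 introns (78.5%) took at least 90% of their donor's reads. That share was 79.6% in well-read annotated introns of 10 to 100 kb and 88.7% in those of 1 to 10 kb. At the acceptor it was 71.5% in the long introns, against 74.6% and 88.4%. Some long introns were minor choices of a well-expressed gene. An intron of Fyn, a kinase of the T cell receptor pathway with 62.4 and 60.1 TPM, held 22 reads, 7.69% of its donor's (4.88 to 11.4%). An intron of Mbnl1 held 204 reads, 14.3% of its donor's. An intron of Rbms1 held 66 reads, 90.4% of its donor's and 2.86% of its acceptor's, and one of Iqsec1 held 15, 1.26% of its acceptor's. In these genes other junctions carried most reads of at least 1 end.

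Skap1 showed a branched donor. From the donor at mm9 chr11:96402801, plus strand, introns of 161122, 136447 and 167079 bases held 296, 268 and 11 reads, which were 45.9%, 41.6% and 1.71% of the donor's reads. Transcripts with the 161122-base intron carried 75.3% of the gene's TPM and those with the 136447-base intron 14.9%. Celf2 also had 3 long introns, with 28, 19 and 15 reads, in transcripts that carried 0.840%, 0.840% and 0.826% of its TPM. The shares of TPM in both genes count only transcripts that the deposited levels hold. Of the 240 hosts, 25 had more than 1 long intron, and Cdh13 had the most. Its introns 1, 2, 5, 6 and 7 of 13 spanned 221705, 169302, 116177, 126991 and 103491 bases and held 14, 73, 25, 53 and 31 reads.

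Each long intron was set beside the introns directly before and after it in its transcript, found in the list by exon and intron lengths. The median log2 ratio of its reads to their mean was 0.25 over 258 introns, against 0.00 over 8350 introns of 10 to 100 kb and -0.05 over 52169 of 1 to 10 kb. The minimum of 10 reads was set on the intron and not on its neighbours, and in hosts under 3 TPM each of the 3 length classes had a median above 0 (0.63, 0.52 and 0.44). First introns had a median of 0.54 (n = 130) and later ones -0.09 (n = 128). In the class of 10 to 100 kb these were 0.29 and -0.11. In hosts of 30 TPM or more, 43 long introns had a median of -1.17, against -0.27 for 2611 shorter ones of 10 to 100 kb. The long introns of the most expressed hosts thus held fewer reads than their neighbours in the median, and further below them than the shorter class. Neighbouring introns can also belong to transcripts that lack the long intron, and neighbours absent from the list were left out of the mean. The part of either in these ratios was not tested. Single introns varied widely: Abtb2 had 2205 reads against 2502 on its neighbour and Prkcb 1993 against a mean of 2176, while Camk4 had 1086 against 71 and Dock10 751 against 101. In Tox, 233 reads stood against 1463 on the next intron, and in Aff3, 42 against a mean of 414.

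Contigs, the stretches the authors joined from overlapping reads, gave a readout that the rule did not use. Contigs of the same strand covered a median of 20.4% of a long intron (quartiles 5.62 and 49.9%), and contigs of the other strand 0.135%. Annotated introns of 10 to 100 kb were covered at 45.9% and those of 1 to 10 kb at 66.3%. Their hosts were also higher, with medians of 12.9 and 14.3 TPM, so cover was compared within host levels. Under 3 TPM the medians were 3.55% in long introns and 4.68% in those of 10 to 100 kb, and from 3 to 10 TPM they were 20.9 and 25.04%. From 10 to 30 TPM the medians were 42.2 and 49.9%, and at 30 TPM or more 66.5 and 77.4%. Long introns lay below the shorter classes in each of the 4 levels, with quartiles that overlapped.

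**Figure D4:**
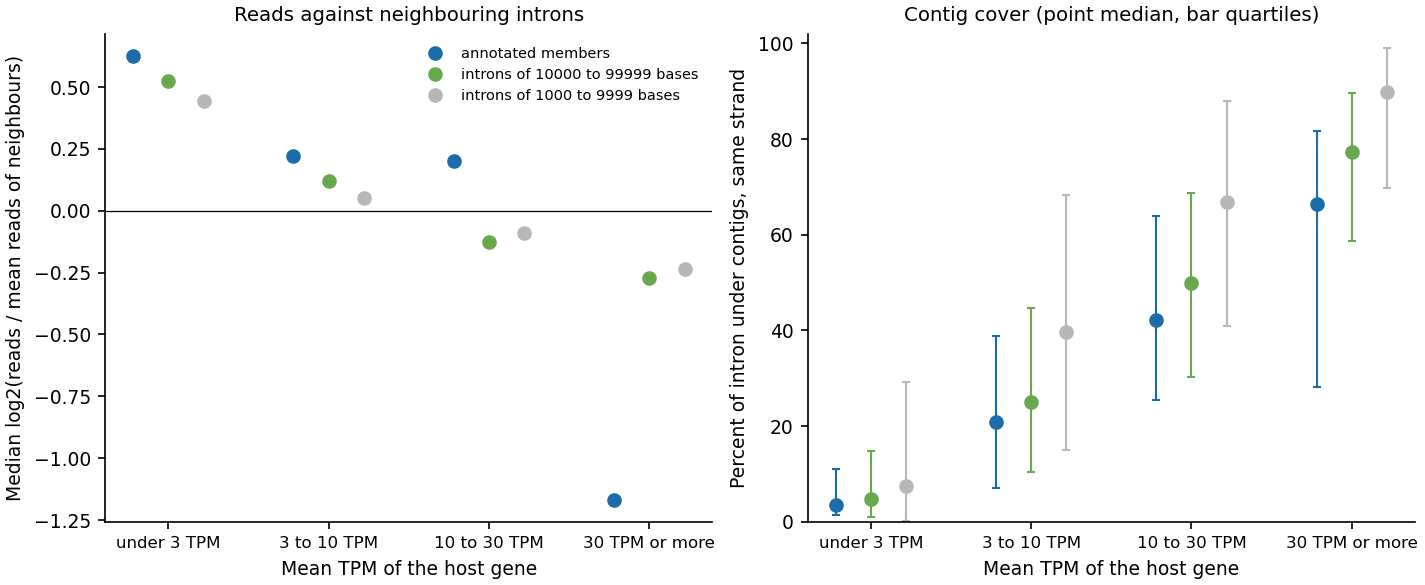
Medians of 3 length classes of well-read annotated introns by the mean TPM of the host. Left, log2 ratio of the intron's reads to the mean of its neighbours; right, percent of the intron under contigs of the same strand, with bars to the quartiles. The long introns reach -1.17 on the left at 30 TPM or more, and on the right their cover rises from 3.55% to 66.5% with the level of the host.

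Cover fell along the long introns from donor to acceptor. The mean was 39.2% in the first decile of the intron (SEM 1.91 over 270 introns) and 19.4% in the last (SEM 1.45), with a lower mean in each decile than in the one before. In introns of 10 to 100 kb it fell from 52.1 to 42.8%. The best-read introns were covered widely: 88.1% in Abtb2, 88.0% in Prkcb, 85.9% in Dock2, 92.8% in Runx1 and 91.7% in Cmip. Others held many reads and little cover, such as Me3 (116 reads, 0.386%), intron 2 of Cdh13 (73 reads, 0.318%) and Ghr (198 reads, 5.55%). The other members were covered less than the long introns: a median of 6.88% on the same strand and 0.545% on the other strand with C equal to 1, and 11.7% and 8.12% with C equal to 0. Only in the last set did both strands stand close together.

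**Figure D5:**
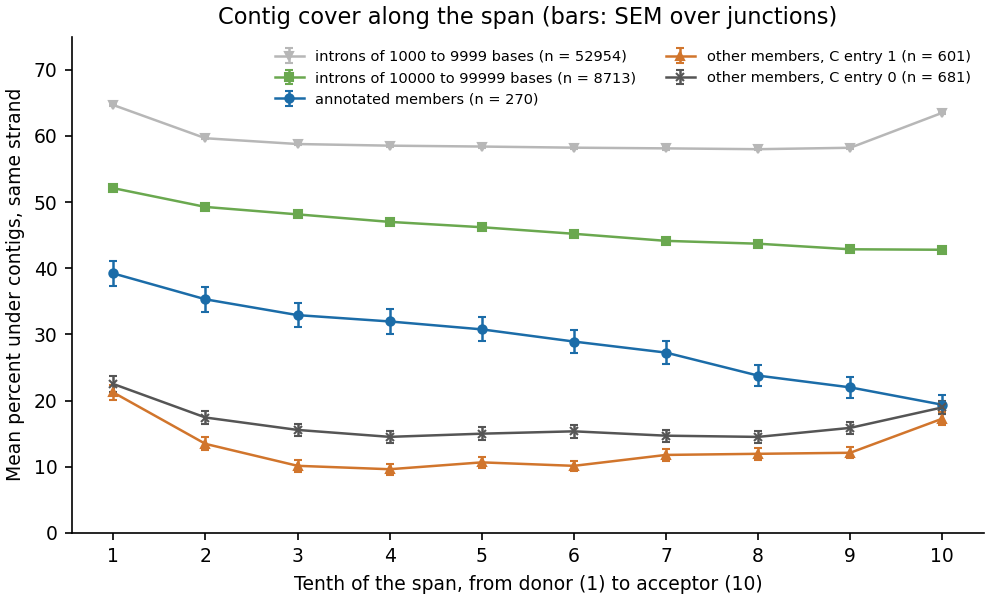
Mean percent of bases under contigs of the same strand in each decile of the span, from donor (1) to acceptor (10), with bars of 1 SEM over junctions. The line of the long introns falls from 39.2 to 19.4%, while those of the members with no annotated intron lie lower and rise again in the last decile.

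Within the long introns GENCODE M21 places 350 other genes, in 152 of the 240 hosts. Of the 220 that the gene tables measured, 12 reached 1 TPM and 2 reached 10. Gm26315, a small RNA gene inside an intron of Celf2 on the same strand, had 13.6 and 12.02 TPM, and Gm20324, inside the intron of Tcf20 on the other strand, had 12.1 and 11.6. Filip1l, a protein-coding gene on the other strand of the Cmss1 intron, had 3.73 and 3.41 TPM. Of 20 nested miRNA genes, 19 were measured and 0 reached 1 TPM in this RNA of over 200 nucleotides, a size range without mature miRNAs.

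Members with C equal to 1 and no annotated length were traced by their ends. Of the 601, 14 joined exon edges of 1 gene in a combination that is not annotated, and they held 10 to 49 reads. In Prkcb, 48 reads ran from the donor of the annotated long intron to an acceptor 166670 bases on. In Camk4, 20 reads ran from the same donor as its long intron to an acceptor 168335 bases on. In Dock10, 34 reads used an acceptor 3 bases past that of its annotated long intron, giving a span of 109996 bases in place of 109993. Macrod1 (49 reads), Pag1 (31), Slc9a9 (28), Arpp21 (14) and Hdac4 (11) were other examples. The share of the donor's reads was 13.3% in Macrod1 and 2.30% in Prkcb.

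A further 128 joined a donor of one gene to an acceptor of another, in 54 pairs of genes, and in 95 the names of both genes began alike. They included 11 from Tmem181c-ps to Tmem181b-ps (80 to 376 reads), 11 from Srp54a to Srp54c (10 to 166 reads) and 8 from Selenbp2 to Selenbp1 (10 to 162 reads). A junction from 2610005L07Rik to 6820431F20Rik held 2558 reads. In the whole set, 37 members touched Gbp4, Gbp6, Gbp8, Gbp9, Gbp10 or Gbp11 of chromosome 5, which encode guanylate-binding GTPases induced by interferon. Counting can split or share reads between near-identical copies, so counts on junctions between such genes are uncertain.

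For the 128 junctions between genes, the first 20 bases of the exon reached in the second gene were compared with those of the next exon of the first gene itself. They were identical in 89 (69.5%), and at least 18 bases were shared in 108 (84.4%), taking the best match among the annotated transcripts. For the donor of Srp54a (166 reads) both exons begin alike, and for the donor of the carboxylesterase gene Ces1g (30 reads) they differ at 3 bases. The 20 bases of each are shown as the letters a read meets just past the donor in either gene, with capitals at bases that differ.
Srp54a: agttgctgccacaaaaagtc
Srp54c: agttgctgccacaaaaagtc
Ces1g: cacAgAggatgaacacagCc
Ces1d: cacTgGggatgaacacagTc
They lie at GRCm38 chr12:55101823-55101842 and chr12:55252127-55252146 on the plus strand for Srp54a and Srp54c, and at chr8:93328512-93328531 and chr8:93187877-93187896 on the minus strand for Ces1g and Ces1d. In 10 junctions fewer than 10 bases were shared, all of them between Gbp genes, such as the most-read junction from Gbp4 to Gbp8 (353 reads).

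Of the rest with C equal to 1, 126 left an exon edge of a named gene for an unnamed acceptor, 71 reached a named gene from an unnamed donor, and 262 touched no placed exon edge. The donor of Anxa11, which encodes an annexin, led to acceptors 139932 and 279546 bases away with 131 reads each, 33.3% of its reads in both cases. A donor of the calcium sensor gene Hpcal1 led to 4 acceptors up to 1223208 bases away, with 129 reads each. Other donors of Hpcal1 and Tmem181a led to unnamed acceptors with up to 796 and 636 reads. At Satb1, which encodes a chromatin organiser of thymocytes, 2 exon ends reached an acceptor 194531 and 193932 bases away with 421 and 188 reads, 2.71% and 8.34% of the reads at these donors. Members with C equal to 1 were gathered on the chromosomes: 10 of 146 blocks of 1 Mb held 289 of the 601 (48.1%). The fullest, with 80, lay around the Tmem181 genes of chromosome 17. A block on chromosome 14 (mm9 chr14:53412037-54383060) held 35 members of 10 to 331 reads and no named gene. Another on chromosome 6 (mm9 chr6:41009641-41496728) held 12 members of 10 to 43 reads. Whether these blocks cover T cell receptor loci was not tested. Among the 94 members with C equal to 1 and at least 100 reads, 57 touched an exon edge of a placed gene.

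The immunoglobulin heavy chain locus gave 13 members that run from J segments to constant genes, placed by the series of exon and intron lengths on chromosome 12. All 4 J segments joined Igha (706 to 1118 reads), Ighg2c (396 to 495) and Ighg2b (203 to 348), and Ighj2 also joined Ighe (19 reads). Their spans on mm9 give the germline distance, and class switching in B cells is known to delete part of it. Ighg1, Ighg3, Ighd and Ighm lie nearer to the J segments than the span limit. Joins to these genes could therefore not be members, and their absence here is set by the rule. Each of the 13 members took 0.460 to 27.1% of the reads at its donor. The B cell gene Cd79a had 36.8 and 30.2 TPM in the libraries. No such joins are given here for T cell receptor loci, and whether members lie there was not tested.

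Of the 681 members with C equal to 0, 673 touched no exon edge of a placed gene, and none of the 52 with at least 100 reads did. The most-read junction of all members (mm9 chr4:121870932-122132563, minus strand) held 19775 of the 57024 reads of this set. It stood with 8 others whose ends lay within 100 bases, and the 9 held 20878 reads at spans of 261630 to 261645 bases. In all, 97 members of the set stood in such groups of at least 2, and the 681 fell into 620 groups. The next by reads held 3804 (chromosome 6), 2744 (chromosome 7), 2103 (chromosome 12) and 1706 (chromosome 10). The ends were hardly shared with other junctions, with a median donor share of 100%.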

How the data were processed

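Thymus RNA was measured in 2 libraries. Reads per junction are counts that the authors deposited on mm9 for both libraries together, and the deposited reproducibility value is a fraction whose making is not stated. The authors' contigs on mm9 carry a signal value, and only their positions and reproducibility were used. Per the file headers, the authors' gene and transcript tables hold expected counts and TPM, and per the deposited text files they rest on mm10 with GENCODE M4. The sources used here name no aligner, quantifier or version. Each junction name holds 2 more entries that may belong to single replicates, and they were left out because nothing assigns them to a library.

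The members and gene lists were chosen with earlier results of these data known. Members were named by exact intron length on chromosome and strand in GENCODE M21, and 13349 genes were placed on mm9 by the lengths of their exons and introns. Where several transcripts held an intron, the leading one had the highest TPM. Sequences came from GENCODE M21 transcripts (GRCm38). Shares, ratios, cover and TPM are descriptions, with no test. A difference between libraries was called at 2-fold on log2(TPM + 0.1) at a mean of at least 1 TPM. Named genes were hosts of the 10 members with most reads, the 10 longest, the 5 on each side of both limits, the 5 highest and 5 lowest hosts, the 10 hosts with the largest differences, hosts with several members, list members and members of at least 100 reads with no annotated intron, of which examples are given. Others were named after their values were seen, the sequence pairs included. Placing and cover were tested on simulated data, in which the genes of a chromosome moved by 1 fixed shift and kept their intron lengths. Shifts that vary along a chromosome and lengths that differ between builds were not simulated, so placing was not tested for them. Alternatives are given in the closing section. The work used numpy 2.4.6, scipy 1.17.1, pandas 2.3.3 and matplotlib 3.10.9 under Python 3.11.15.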

Additional observations from a re-analysis of the deposited data

How the results depend on the processing

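The number of members follows its limits. It was 798 at a minimum of 20 reads, 3103 at a span of at least 50000 bases and 647 at 200000. With settings chosen after seeing the data, it was 871 at C equal to 1 and 261 at A equal to 1. The number with an annotated intron stayed between 266 and 275, and first introns numbered 130 with basic transcripts. The median host level was between 6.13 and 6.37 TPM with 1 replicate left out and 7.36 TPM over hosts of at least 1 TPM. Hosts past 2-fold numbered 8 with a pseudocount of 1, 14 with no filter and 7 with expected counts scaled to equal library totals, where 3.23% of hosts and 3.57% of all genes were past it. The median donor and acceptor shares were both 100% over junctions of at least 10 reads. The median log2 ratio was 0.35 against the median of all other introns of the transcript. Median contig cover was 16.3% with contigs of at least 200 bases, 13.9% with those at a reproducibility value of at most 0.1, and 20.2% without the outer 1000 bases, and with the first 2 of these the shorter classes also stayed above it. The cause of these shifts was not tested beyond the narrower limits themselves. Added after seeing the data, the AG share was 55.5% over joins coding on both sides. The letters of the introns were not read, so the planned share of GTAAGT was not run. No paired analysis was possible because the series holds 1 group of 2 libraries.

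Counts on the junction list are pooled, so no spread between libraries can be given for reads, shares or cover, and a member at 10 reads carries wide counting error. Lengths name an intron only where GENCODE M21 holds it. Members in gene clusters depend on how reads with several places were counted, which no source used here states.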
